A study of Mus musculus with 18 samples.

Results

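The interleukin 1 family and its receptors were examined in cultured mouse thyroid cells through every array probe whose gene name was Il1a, Il1b, Il1rn, Il1r1, Il1r2, Il1rl1, Il1rap, Il18 or Il33. Of these 9 names, 8 were found, with 17 of the 41174 probes on the array, and 13 of the 17 probes passed the filter for dim probes, so that all 8 genes were among the 20455 tested. Il33 was not found under its own name. A probe named 9230117N10Rik matched Il33 by its RefSeq transcript record, and its values are given as Il33, apart from the counts of members. The remaining 4 probes, Il1r2 probe 2 and Il1rap probes 1, 2 and 3, were above background on at most 2 of the 18 arrays, and no level is read from them.

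The study compared side population cells, which exclude the dye Hoechst 33342 in a manner blocked by verapamil, with the main population that retains it, from thyroids with and without partial thyroidectomy. Male and female C57BL/6 mice gave the thyroids, which were digested with collagenase and dispase, and all cells were cultured for 2 days before they were sorted by flow cytometry. The 4 groups were control side population (CSP, 6 arrays) and control main population (CMP, 3 arrays), both without surgery, and side population (TSP, 6 arrays) and main population (TMP, 3 arrays) after partial thyroidectomy. The design describes biological replicates, and how many animals or cultures a sample pooled is not given in the sources used here. Each array carried Cy5-labelled RNA amplified from the sorted cells and, in Cy3, a common reference pooled from many tissues of Swiss Webster mice. Each value is a normalized log2 ratio of sample over reference, so 0 means a signal equal to the reference, and the levels of different genes are not comparable with each other. Because the samples are bulk RNA, fewer cells of a type and less RNA per cell cannot be told apart.

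Interleukin 1 alpha (Il1a) and interleukin 1 beta (Il1b) are inflammatory cytokines that bind the receptor Il1r1, which then recruits the accessory protein Il1rap and signals through Myd88 to NF-kB. The antagonist Il1rn occupies the same receptor without signalling, and Il1r2 is a decoy that binds the cytokines but lacks a signalling domain. Interleukin 33 is a nuclear alarmin released from damaged stromal, endothelial and barrier cells; it signals through Il1rl1 (ST2) with the same accessory protein, whereas interleukin 18 has a receptor pair of its own. In thyroid cultures interleukin 1 is known to act on follicular cells.

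Probes of a gene could differ because they read different stretches of its transcripts, so 5 probe sequences are shown, each 60 bases, in the 5′ to 3′ order of the array files, with coordinates of mouse build mm7. Il18 probe 1 (chr9:50557947-50560075), Il1a probe 1 (chr2:129043842-129045576), Il1rl1 probe 2 (chr1:40680766-40681628) and Il1rn probe 1 (chr2:24354826-24355846) span far more than 60 bases of the genome and therefore cross an intron. Il1r2 probe 1 (chr1:40362239-40362298) lies within 60 bases.
Il18 probe 1: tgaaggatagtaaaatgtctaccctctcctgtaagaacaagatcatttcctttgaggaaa
Il1a probe 1: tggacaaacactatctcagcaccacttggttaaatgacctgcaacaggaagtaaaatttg
Il1r2 probe 1: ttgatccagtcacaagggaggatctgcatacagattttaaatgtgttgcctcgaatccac
Il1rl1 probe 2: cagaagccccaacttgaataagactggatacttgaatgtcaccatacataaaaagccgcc
Il1rn probe 1: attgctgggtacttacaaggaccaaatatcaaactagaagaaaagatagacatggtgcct

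Il1a and Il1b neighbour each other on chromosome 2 and were lower together in the side population, while Il1r2 on chromosome 1 was higher, so the 250 bases before the start of each are shown, on the strand of the gene, from RefSeq (GRCm38.p6). Capitals mark matches, searched on both strands, to TATAAA (the TATA box), to TGANTCA (the AP-1 site) and to the NF-kB consensus. Il1a (chr2:129309973-129310222, minus strand) held TATAAA 32 bases before its start and an AP-1 match, TGACTCA, 12 bases before it. Il1b (chr2:129371140-129371389, minus strand) held TATAAA 31 bases before its start, and the Il1r2 window (chr1:40085843-40086092, plus strand) held none of the 3 motifs.
Il1a: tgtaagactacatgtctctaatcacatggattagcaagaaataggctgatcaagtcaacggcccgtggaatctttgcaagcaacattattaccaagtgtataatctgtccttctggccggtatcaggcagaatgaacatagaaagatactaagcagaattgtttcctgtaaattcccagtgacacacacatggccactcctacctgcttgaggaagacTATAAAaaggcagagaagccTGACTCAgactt
Il1b: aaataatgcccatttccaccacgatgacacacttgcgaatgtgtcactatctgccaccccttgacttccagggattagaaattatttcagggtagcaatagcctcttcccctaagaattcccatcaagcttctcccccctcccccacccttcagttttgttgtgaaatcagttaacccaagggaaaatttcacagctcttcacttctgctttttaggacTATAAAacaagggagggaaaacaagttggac
Il1r2: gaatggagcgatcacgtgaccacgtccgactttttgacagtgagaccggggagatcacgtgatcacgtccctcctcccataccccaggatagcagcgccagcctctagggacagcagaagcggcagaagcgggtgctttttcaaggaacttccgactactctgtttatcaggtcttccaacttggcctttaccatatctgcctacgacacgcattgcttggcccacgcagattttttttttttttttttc

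Among 32851 RefSeq promoter windows of this length, 12.4% held TATAAA, 7.25% the NF-kB consensus and 6.75% the AP-1 letters. Of the other members, Il18 held TATAAA 175 bases before its start, Il33 held it 203 and 29 bases before its starts 1 and 2, Il1rn had an AP-1 match 141 bases before its start 1, and Il1r1 had an NF-kB match 232 bases before its start 2. The windows of Il1rap and Il1rl1 held none of the 3 motifs. These are letter matches and were not tested as binding sites.

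The arrays differed in quality and in 1 respect from their labels. The share of spots with a Cy5 signal clear of background was 38.8% to 72% per array and lowest on slides 1 and 5. Over 19987 genes, TSP 1 and TSP 2 correlated at a median r of 0.949 with the main population arrays and 0.695 with the other side population arrays, which correlated with each other at 0.874. Results on members that use the TSP group are therefore given with and without these 2 arrays, and since all 4 groups share 1 estimate of the spread, so are the members' main adjusted p values between the control populations. The follicular gene Tg (thyroglobulin) was well above background on all 18 arrays. Between CSP and CMP, 6 of 6 endothelial and 5 of 6 fibroblast markers were higher in CSP, and 6 of 6 epithelial and 6 of 8 follicular markers were lower; these lists were chosen with earlier results of these data known.

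The first comparison asked how the side population differed from the main population without surgery. The cytokines Il1a and Il1b and the antagonist Il1rn were lower in the control side population, and the decoy receptor Il1r2 and the interleukin 33 receptor Il1rl1 were higher. Of the 8 members, 5 passed the test (limma, Benjamini-Hochberg adjusted p under 0.05 over all 20455 genes), 2 higher and 3 lower in CSP. The background was 14.9% of all genes, with 7.61% higher and 7.25% lower. Il1r2 passed the filter for dim probes through side population arrays alone (5 CSP and 3 TSP). Il1b passed it through 3 CMP, 3 TMP and 2 TSP arrays, and Il1a through 3 CMP, 3 TMP, 1 CSP and 1 TSP array. These genes were thus admitted by arrays on which they were high. Without the filter 5 of 8 members passed, with 2734 of 27962 genes called. Without TSP 1 and TSP 2 in the fit, 6 of 8 passed, with a background of 19.3% (10.2% higher and 9.06% lower). These 2 arrays were picked by their expression here. Leaving them out kept the difference of Il1b at -3.04 and took its SE from 0.53 to 0.29. Adjusted p values of CSP against CMP without them, here and below, are therefore not independent support. With only the control groups in the fit, 5 of 8 passed, and 3661 of 20455 genes. The values of CSP and CMP did not overlap for 6 members, against 20.3% of all genes with a value on every array.

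**Figure D1:**
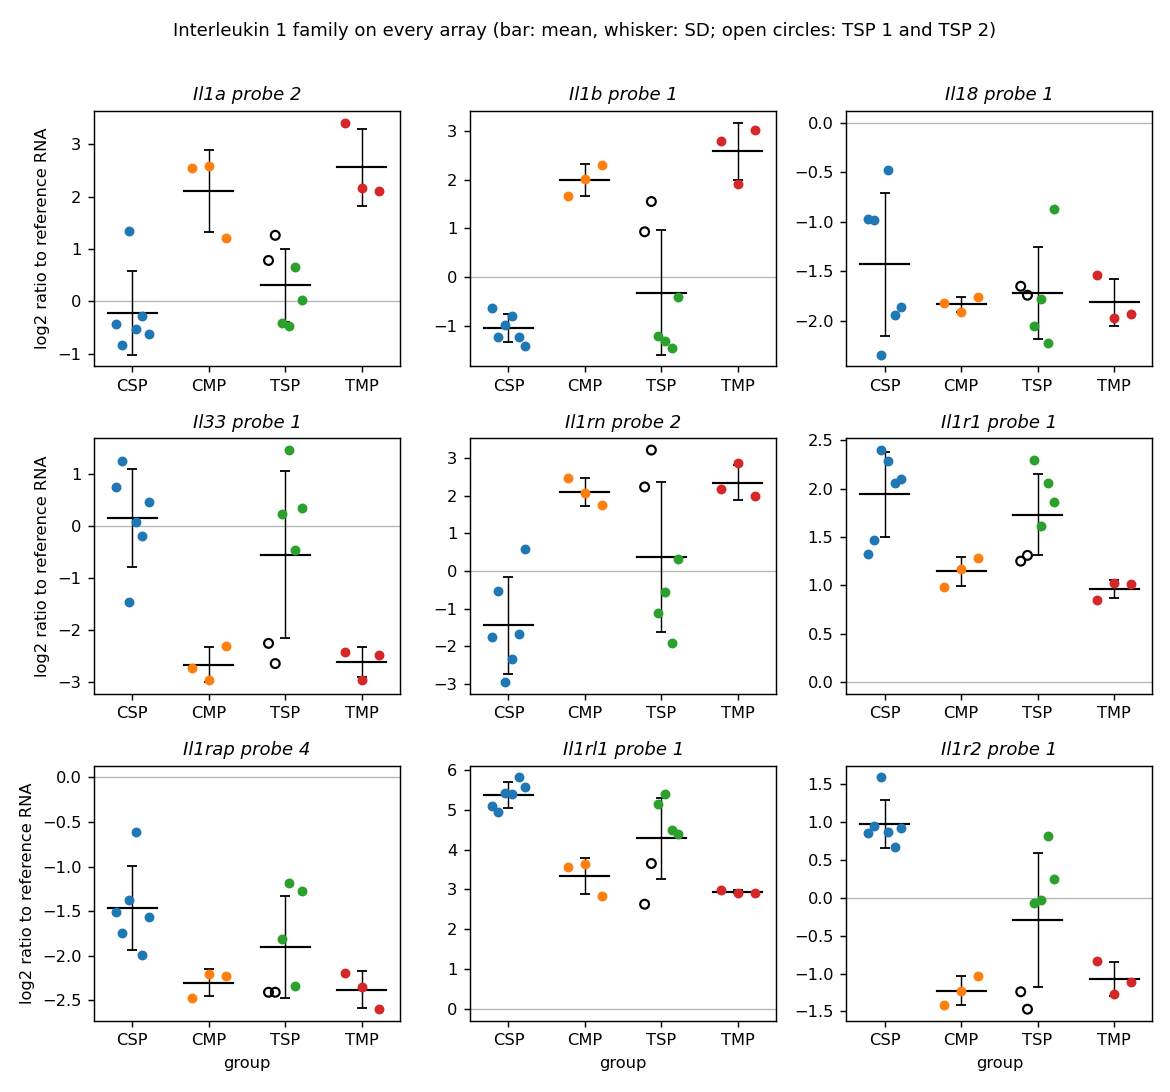
Log2 ratio to the reference (vertical axis) of each member on each of the 18 arrays, by group (horizontal axis), with bars at the mean and whiskers of 1 SD; TSP 1 and TSP 2 are open circles. Il1b sits between -1.41 and -0.63 in CSP and between 1.66 and 2.30 in CMP, and TSP 1 (0.93) and TSP 2 (1.55) lie apart from the other TSP arrays.

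Il1b, the inducible form that caspase 1 cleaves to its active shape, was measured by 1 probe (chr2:129105464-129105523, mm7) printed in 10 spots on each array, whose spot SD within an array was 0.06 to 0.45 (median 0.14). Its log2 ratio in CSP ranged from -1.41 through a median of -1.10 to -0.63 (mean -1.04 ± 0.30 SD, n = 6). In CMP it was 1.66, 2.02 and 2.30 (mean 2.00 ± 0.32 SD, n = 3). Every CMP array was higher than every CSP array. The ratios were 8.23-fold lower in CSP (log2 difference -3.04 ± 0.53 SE, adjusted p = 0.00795, and 1.45e-06 without TSP 1 and TSP 2). Il1b was not well above background on any CSP array, so this fold is not exact, and in the Cy5 channel alone the level was at least 9.55-fold lower in CSP. Such a bound sets the mean Cy5 level of the brighter group (here 10.76 on the log2 scale) against a mean level of the dimmer one. On each array of the dimmer group that level is the measured one or the lowest level well above background, whichever is higher. Here it was 7.5 on average, against a measured 7.40. The bound is open to dye bias because no dyes were swapped. Since it leaves out the reference channel, it can exceed the fold of the ratios, as here, and it is then no bound for that fold.

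Il1a, a cytokine that is active as made and also acts as an alarm signal from dying cells, had 2 probes. Probe 2 (chr2:129041111-129041170, mm7) was the brighter and represents the gene. It ran from -0.84 through a median of -0.47 to 1.35 in CSP, where 1 of 6 arrays was well above background. In CMP it gave 1.2, 2.54 and 2.59. The groups overlapped through a single array, CSP 3 at 1.35, next to -0.28 for the next highest of its group. The difference was -2.33 ± 0.49 SE, 5.04-fold lower in CSP by the ratios, not an exact fold since 5 of 6 CSP arrays were not well above background (adjusted p = 0.00825, and 0.00128 without TSP 1 and TSP 2). Leaving out CMP 2 ended the call (-2.10, adjusted p = 0.0515).

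Il1a probe 1, the intron-crossing probe shown above, did not pass in a fit of all 29803 probes on their own, of which 13.2% were called (6.57% higher and 6.62% lower in CSP). Its CSP values ran from -1.25 through a median of 0.10 to 0.50 and its CMP values were -0.02, 0.63 and 1.05. It was well above background on 5 of 18 arrays, 1 of them in CSP, and in the reference channel also on 5 of 18. The difference was -0.59 ± 0.36 SE (adjusted p = 0.313). The probes of Il1a thus had the same sign and unequal size.

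Il18, a cytokine that drives interferon gamma production and is also matured by caspase 1, showed no difference past the test. It was read by 10 spots per array with a spot SD of 0.08 to 0.20 (median 0.15). CSP values ran from -2.34 through -1.42 to -0.48, and CMP values were -1.91, -1.82 and -1.76. The CMP arrays lay inside the CSP range, and the difference was 0.40 ± 0.35 SE (adjusted p = 0.494). It was well above background on 12 of 18 arrays and below the level of the reference on all of them.

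Il33 (chr19:29660344-29660403, mm7), read under its array name 9230117N10Rik, was higher in the side population. It ran from -1.47 through 0.28 to 1.26 in CSP and was -2.97, -2.73 and -2.31 in CMP. No CMP array reached the lowest CSP array. The difference was 2.82 ± 0.71 SE, or 7.08-fold (adjusted p = 0.0138, and 0.000326 without TSP 1 and TSP 2). Without CMP 1 it was 2.79 with an adjusted p of 0.0579, and without CMP 2 it was 2.67 with 0.0678. The call was also lost with the replicate number as a block (2.33, adjusted p = 0.0745) and after scaling between arrays (2.60, adjusted p = 0.0565).

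Il1rn, the receptor antagonist, was lower in CSP. Probe 2 (chr2:24357916-24357975, mm7), well above background on all CSP and CMP arrays, ran from -2.95 through -1.73 to 0.59 in CSP and was 1.74, 2.06 and 2.47 in CMP. The groups did not overlap, although the CSP arrays were spread widely (SD 1.28, n = 6). The level was 11.7-fold lower in CSP (log2 difference -3.54 ± 0.90 SE, adjusted p = 0.0142, and 0.000377 without TSP 1 and TSP 2). The call was lost without CMP 1 (-3.35, adjusted p = 0.067) and without CMP 2 (-3.56, adjusted p = 0.0596).

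Il1rn probe 1, whose sequence is shown above, was dim, above background on 4 arrays and never in the reference channel. Its values were between -0.25 and 0.06 in CSP and were 0.43, 0.63 and 0.79 in CMP. It differed by -0.69 ± 0.23 SE (adjusted p = 0.053, and 0.0143 without TSP 1 and TSP 2), with a bound of at least 1.07-fold, since no CSP array was above background.

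Il1r1, the signalling receptor for both interleukin 1 cytokines, was above background on all 18 arrays (chr1:40555675-40555734, mm7). It ran from 1.32 through 2.08 to 2.40 in CSP and was 0.98, 1.17 and 1.28 in CMP. The groups did not overlap, but the gap between them was narrow. The difference of 0.80 ± 0.27 SE missed the threshold with all arrays (adjusted p = 0.0553) and passed without TSP 1 and TSP 2 (0.0338) and with slide as a block (0.92, adjusted p = 0.00521). The slide fit called more genes in all (5758, against 3039). With only the control groups in the fit, Il1r1 was not called.

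Il1rap, the accessory protein shared by the interleukin 1 and interleukin 33 receptors, did not pass. Probe 4 (chr16:26362501-26362560, mm7) ran from -1.99 through -1.54 to -0.61 in CSP and was -2.48, -2.23 and -2.20 in CMP. The groups did not overlap, and the difference was 0.84 ± 0.31 SE (adjusted p = 0.0806, and 0.0561 without TSP 1 and TSP 2). Probe 5 (chr16:26378192-26378251, mm7) overlapped fully, with CSP from -0.09 to 1.05 and CMP at 0.16, 0.67 and 0.89, and differed by -0.08 ± 0.29 SE (adjusted p = 0.89).

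Il1rl1, the interleukin 33 receptor, was higher in CSP at all 3 of its probes. Probe 1 (chr1:40688351-40688410, mm7) is listed for transcript variant 2, which encodes the soluble form that traps interleukin 33. It ran from 4.93 through 5.4 to 5.81 in CSP and was 2.83, 3.56 and 3.65 in CMP. All CSP arrays were higher than all CMP arrays, and both groups were far above the reference. The difference was 2.02 ± 0.43 SE, or 4.06-fold (adjusted p = 0.00882, and 4.18e-05 without TSP 1 and TSP 2). The reference channel of probe 1 was well above background on 13 of 18 arrays, so this fold is not exact. Il1rl1 was not called with the signals processed by the scanner software (0.87, adjusted p = 0.193), with the authors' values (0.16, adjusted p = 0.818) or after scaling between arrays (1.88, adjusted p = 0.609).

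The other Il1rl1 probes were also higher in CSP. Probe 2, also listed for variant 2 and shown above, lies before probes 1 and 3 on the chromosome. Whether it reads variant 2 alone was not tested, so it is not taken as a probe of the soluble form. It ran from 1.99 through 2.94 to 3.42 in CSP and was 0.17, 0.28 and 0.32 in CMP. Probe 3 (chr1:40705585-40705644, mm7), listed for variant 1, the membrane receptor, ran from 1.83 through 2.34 to 2.89 in CSP and was -0.21, 0.13 and 0.25 in CMP. Neither overlapped between the groups. Probe 2 was well above background on 1 of 3 CMP arrays and on 1 of 18 in the reference channel, and probe 3 on 2 of 3 and on 16 of 18, so their folds are not exact. Probe 2 was 6.23-fold higher in CSP (2.64 ± 0.71 SE, adjusted p = 0.0208) and probe 3 was 4.83-fold higher (2.27 ± 0.48 SE, adjusted p = 0.00981). Probe 1, listed for the soluble form, and probe 3, listed for the membrane form, were thus both higher in CSP, and the difference between the probes was not tested.

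Il1r2, the decoy receptor, ran from 0.67 through 0.90 to 1.59 in CSP at probe 1, whose sequence is shown above. In CMP it was -1.41, -1.23 and -1.03 and not well above background on any array. No values overlapped, and it was at least 3.24-fold higher in CSP (2.20 ± 0.38 SE, adjusted p = 0.00795, and 6.76e-06 without TSP 1 and TSP 2). The highest CSP array, CSP 3 at 1.59, stood apart from the other CSP arrays, which were at or below 0.95.

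**Figure D2:**
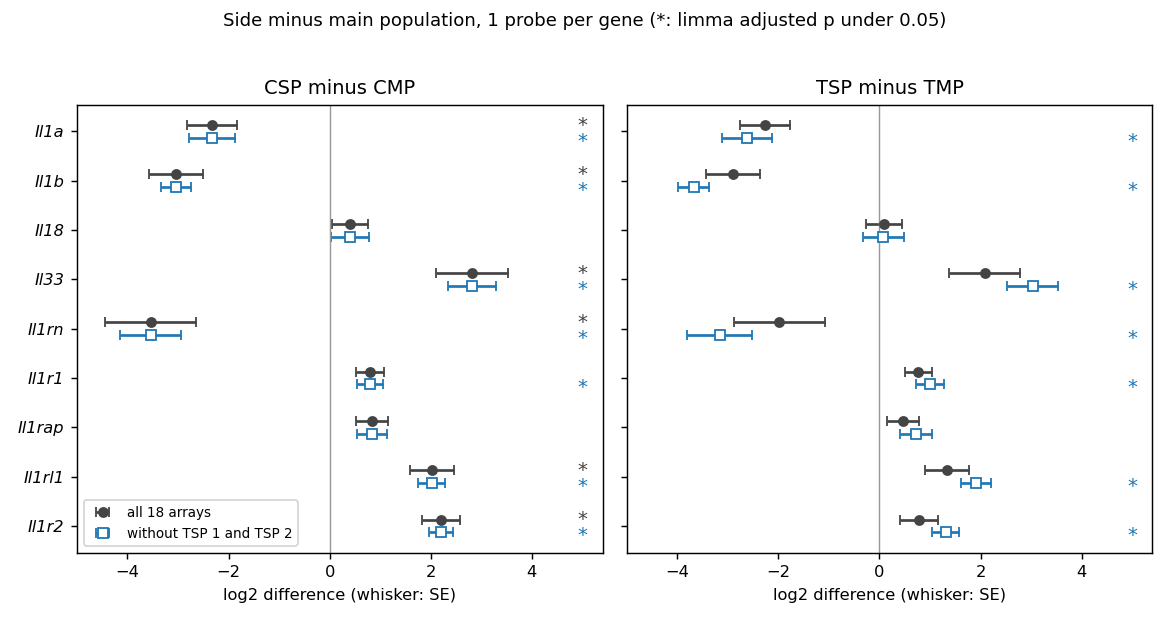
Log2 difference (horizontal axis) of each member (vertical axis), CSP minus CMP and TSP minus TMP, with whiskers of 1 SE from the limma fit. Filled points use all 18 arrays, open squares leave out TSP 1 and TSP 2, and asterisks mark an adjusted p under 0.05. Il1b, Il1a and Il1rn lie below 0 and Il1r2, Il1rl1 and Il33 above 0 between CSP and CMP, at -3.04, -2.33, -3.54, 2.20, 2.02 and 2.82.

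Slides held several groups, so the differences were also read within a slide. On slide 4, the only one with both control populations (2 CSP arrays against 1 CMP array), Il1b differed by -3.34, Il1a by -3.04, Il1rn by -2.61, Il1r2 by 2.02, Il1rl1 by 2.04, Il1r1 by 0.91, Il33 by 3.11 and Il18 by 0.01. Il1rap (probe 4) differed by 0.42 there. Signs were those over all arrays. The size was smaller than over all arrays for Il1rap (0.84), Il18 (0.40) and Il1rn (-3.54), and larger for Il1a (-2.33). The slide 4 arrays are also part of the values over all arrays, and with 1 CMP array no test is read from this slide. With slide as a block over all arrays the calls on Il1b (-3.48, adjusted p = 0.00164), Il1a (-2.16, 0.0218), Il1rn (-3.89, 0.00537), Il1r2 (2.65, 0.000951) and Il1rl1 (2.27, 0.00207) stood. That fit called 5758 of 20455 genes, against 3039 in the main fit, so it was not a stricter test. Its slide terms also drew on the TSP and TMP arrays, TSP 1 and TSP 2 among them. Other processing moved some sizes. With the signals processed by the scanner software Il1b differed by -5.84 and Il1r2 by 4.13, and with the authors' values by -5.08 and 5.36. Averaging all probes of a gene gave -1.46 for Il1a and -2.12 for Il1rn, and each of these 6 values was called.

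**Figure D3:**
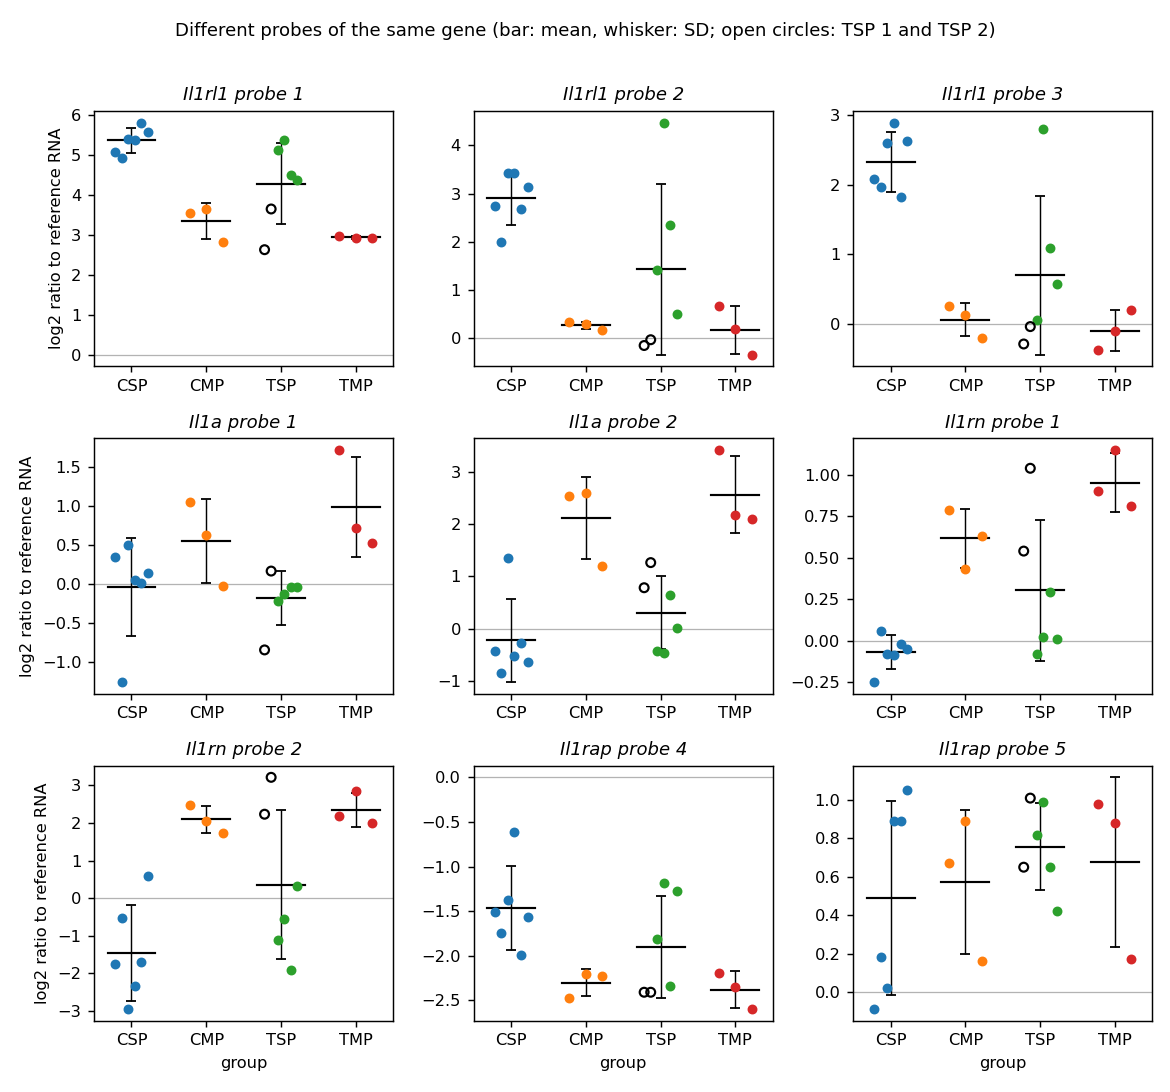
Log2 ratio to the reference (vertical axis) by group (horizontal axis) for the separate probes of members with more than 1 measured probe, 1 point per array, bars at the mean and whiskers of 1 SD. Il1rl1 probes 1, 2 and 3 are all higher in CSP than in CMP, whereas Il1rap probe 5 overlaps between them (-0.09 to 1.05 against 0.16 to 0.89).

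The second comparison was the same contrast after partial thyroidectomy. With all arrays no gene was called in limma (0%), and 2797 of 20455 genes and 5 of 8 members had an unadjusted p under 0.05; the smallest adjusted p of a member was 0.164, for Il1b. The groups did not overlap for 3 members, Il1a, Il1b and Il1r1, against 3.92% of all genes. At Il1rn, Il33, Il1r2 and Il1rl1, TSP 1 and TSP 2 lay near or within the range of the main population arrays. Without them 6 of 8 members passed, 3 higher (Il1r2, Il1rl1 and Il1r1) and 3 lower (Il1b, Il1a and Il1rn), and the background was 14.7% of genes, 7.67% higher and 7.01% lower. TSP 1 and TSP 2 were picked because their expression on these arrays resembled the main population. Leaving them out therefore favours a difference between TSP and TMP. Here and below, adjusted p values of this comparison without them describe the remaining TSP arrays and are not independent support.

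Il1b in TSP was 0.93 on TSP 1 and 1.55 on TSP 2, against -1.21, -1.31, -1.45 and -0.40 on TSP 3 to TSP 6. In TMP it was 2.80, 1.91 and 3.02. All TSP arrays were below all TMP arrays, and only TSP 1 and TSP 2 were above background. The difference was -2.89 ± 0.53 SE with all arrays (adjusted p = 0.164) and -3.67 ± 0.31 SE without TSP 1 and TSP 2 (adjusted p = 5.73e-07), a 12.7-fold difference of the ratios, which is not exact because TSP 3 to TSP 6 were at background. With slide as a block and all arrays it was called (-3.40, adjusted p = 0.0258), and within slide 5 alone it was -3.95.

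Il1a probe 2 in TSP was 0.78 and 1.26 on TSP 1 and TSP 2, and -0.42, -0.47, 0.65 and 0.02 on TSP 3 to TSP 6. TMP gave 3.41, 2.17 and 2.10, above all TSP arrays. It differed by -2.26 ± 0.49 SE with all arrays (adjusted p = 0.252). Without TSP 1 and TSP 2 it fell by 2.62 ± 0.49 SE (adjusted p = 0.00123), at least 4.64-fold, since none of the 4 arrays was above background. The dimmer probe 1 differed by -1.09 ± 0.38 SE in that setting (adjusted p = 0.0724).

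Il1rn in TSP was 2.23 and 3.21 on TSP 1 and TSP 2 and -1.11, -0.55, -1.92 and 0.31 on the others, against 2.18, 2.86 and 1.99 in TMP. TSP 2 was the highest array of both groups, while TSP 3 to TSP 6 were all below TMP. The difference was -1.98 ± 0.90 SE with all arrays (adjusted p = 0.34) and -3.16 ± 0.65 SE, an 8.92-fold lower level, without TSP 1 and TSP 2 (adjusted p = 0.00247).

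Il33 showed the opposite order. It was -2.26 and -2.65 on TSP 1 and TSP 2, 0.24, 1.47, -0.45 and 0.36 on TSP 3 to TSP 6, and -2.43, -2.96 and -2.49 in TMP. TSP 1 and TSP 2 were thus at the level of the main population, and the other 4 arrays were higher. The difference was 2.08 ± 0.71 SE with all arrays (adjusted p = 0.252) and 3.03 ± 0.51 SE, or 8.17-fold, without them (adjusted p = 0.000468).

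Il1rl1 probe 1 was 2.63 and 3.65 on TSP 1 and TSP 2, 5.13, 5.39, 4.50 and 4.38 on TSP 3 to TSP 6, and 2.98, 2.92 and 2.92 in TMP. TSP 1 was lower than every TMP array. The difference was 1.34 ± 0.43 SE with all arrays (adjusted p = 0.252) and 1.91 ± 0.29 SE, or 3.76-fold, without TSP 1 and TSP 2 (adjusted p = 0.000212). In the fit of single probes without those arrays, probe 2 passed (2.02 ± 0.63 SE, adjusted p = 0.042) and probe 3 did not (1.23 ± 0.46 SE, adjusted p = 0.0997).

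Probes 2 and 3 varied widely among TSP 3 to TSP 6. Probe 2 gave 1.41, 4.47, 2.35 and 0.50, and probe 3 gave 0.06, 2.80, 1.09 and 0.57. TSP 4 was the highest of the TSP arrays at all 3 Il1rl1 probes.

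Il1r2 was -1.24 and -1.47 on TSP 1 and TSP 2, -0.07, -0.03, 0.81 and 0.25 on TSP 3 to TSP 6, and -0.83, -1.27 and -1.11 in TMP, where no array was above background. The other 4 TSP arrays were above all TMP arrays. It differed by 0.78 ± 0.38 SE with all arrays (adjusted p = 0.386) and by 1.31 ± 0.26 SE, at least 2.34-fold, without TSP 1 and TSP 2 (adjusted p = 0.00214).

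Il1r1 was 1.25 and 1.31 on TSP 1 and TSP 2 and 2.30, 1.61, 2.06 and 1.86 on the others, against 0.85, 1.02 and 1.01 in TMP. All 6 TSP arrays were above TMP. The difference was 0.77 ± 0.27 SE with all arrays (adjusted p = 0.252) and 1.00 ± 0.27 SE, or 2-fold, without TSP 1 and TSP 2 (adjusted p = 0.0179).

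Il18 and Il1rap did not pass in either setting. Il18 differed by 0.09 ± 0.35 SE with all arrays and 0.08 ± 0.40 SE without TSP 1 and TSP 2 (adjusted p = 0.948 and 0.937). Il1rap probe 4 differed by 0.47 ± 0.31 SE and 0.72 ± 0.32 SE (adjusted p = 0.565 and 0.155).

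The third comparison asked what partial thyroidectomy changed within each population. Between TSP and CSP no gene passed with or without TSP 1 and TSP 2 (0% in limma; 1860 genes and 3 members had an unadjusted p under 0.05 with all arrays, 701 genes and 1 member without the 2). The members with an unadjusted p under 0.05 were Il1r2 (-1.27 ± 0.31 SE, adjusted p = 0.356), Il1rl1 (-1.09 ± 0.35 SE, adjusted p = 0.496) and Il1rn (1.81 ± 0.73 SE, adjusted p = 0.517). Without TSP 1 and TSP 2 these differences were -0.74, -0.52 and 0.63, each with an adjusted p of 1. The groups overlapped for all members, against 0.465% of genes without overlap.

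With slide as a block, Il1rn (2.35, adjusted p = 0.0439) and Il1r2 (-1.50, adjusted p = 0.0112) were called between TSP and CSP. Leaving out TSP 1 and TSP 2 as well ended both calls (1.33 and -1, adjusted p = 0.397 and 0.145). On slide 1, which held TSP 1 and TSP 2 with CSP 1 and CSP 2, Il1rn differed by 3.88, Il1b by 2.16, Il1r2 by -2.26, Il33 by -3.46 and Il1rl1 by -1.87. On slide 3, with TSP 3, TSP 4, CSP 3 and CSP 4, the same genes differed by 1.82, -0.37, -1.28, 1.54 and -0.14. Il1b and Il33 had opposite signs on the 2 slides, while Il1rn was higher and Il1r2 lower in TSP on both.

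In the main population no gene passed between TMP and CMP (0% in limma; 25 genes and 0 members had an unadjusted p under 0.05), and 2.94% of genes did not overlap between the groups. The members differed by 0.58 ± 0.61 SE (Il1b), 0.45 ± 0.56 SE (Il1a) and -0.41 ± 0.50 SE (Il1rl1), and the others lay between -0.19 and 0.25, each with an adjusted p of 1. Same-numbered CMP and TMP arrays shared a slide, so a pairing by number and a slide effect cannot be told apart. With the number as a block in limma, 6 genes, 0 members and 0 pathway genes passed. In that fit 1224 genes, 2 members and 13 pathway genes had an unadjusted p under 0.05. Il1r1 was lower after surgery at each of the 3 numbers (log2 differences -0.13, -0.15 and -0.28) but did not pass. In the fit without this block the SE was highest for Il1rn, at 1.03. The test of whether surgery changed the populations unequally called no gene (0% in limma, 220 genes unadjusted, and 121 without TSP 1 and TSP 2). Of the members, Il1r2 alone had an unadjusted p under 0.05 there with all arrays (-1.42 ± 0.54 SE, and -0.89 ± 0.36 SE without TSP 1 and TSP 2, both with an adjusted p of 1).

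The rest of the pathway was followed with a list of 60 genes chosen with earlier results of these data known, of which 53 were tested. Between CSP and CMP 16 were higher and 4 lower in CSP, with a median difference of 0.36 (0.06 over all genes), against the background of 14.9% called. Without TSP 1 and TSP 2 the counts were 18 and 5. Each pathway gene named below as higher or lower in CSP than in CMP passed in both settings. By role, calls were made on 11 of 20 genes induced by interleukin 1, 4 of 5 inflammasome genes, 3 of 19 signalling genes and 2 of 9 further ligands and receptors.

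**Figure D4:**
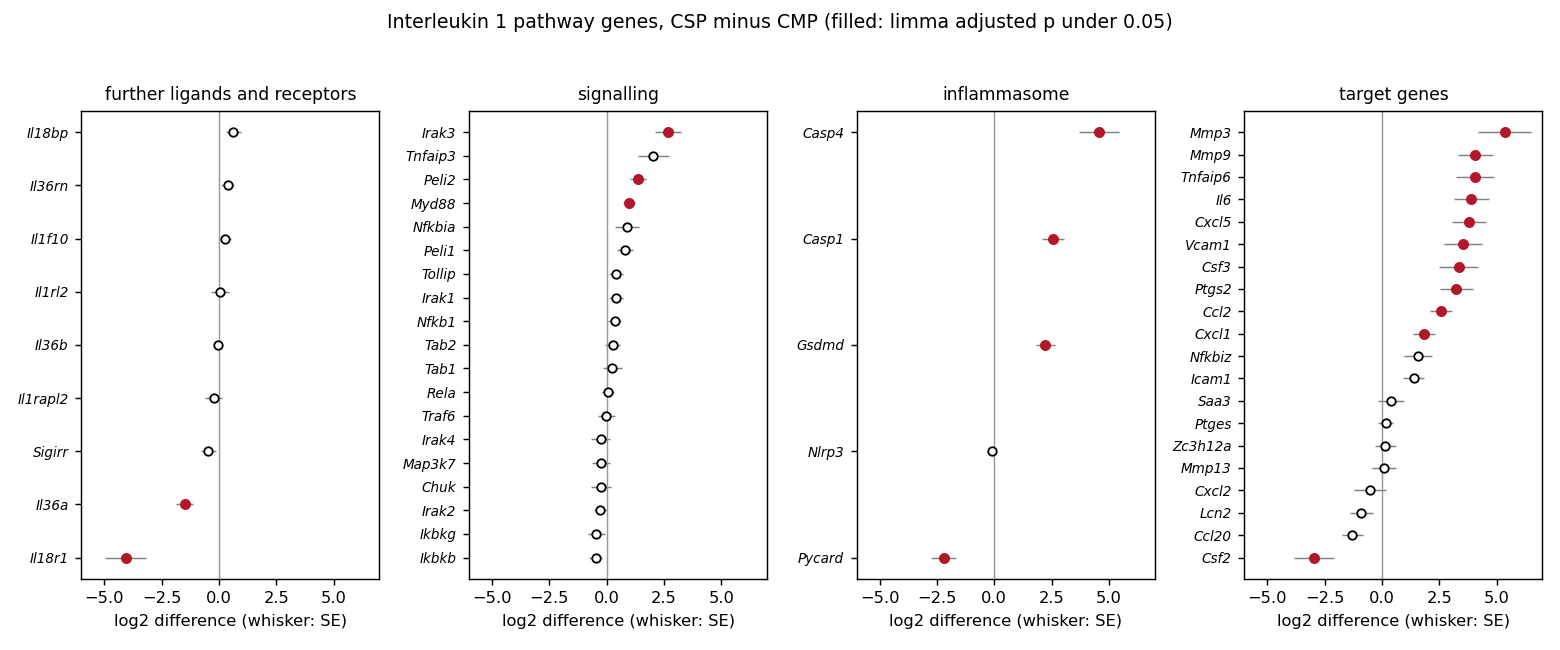
Log2 differences (horizontal axis) of the 53 pathway genes, in 4 panels by role, between the side and main population; filled points have an adjusted p under 0.05. Among control arrays, target genes lie mostly above 0, up to Mmp3 at 5.35, and Il18r1 (-4.07) is the lowest of the further receptors.

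Among further ligands and receptors, 0 of 9 were higher and 2 were lower in CSP. Il18r1, the binding chain of the interleukin 18 receptor, ran from -1.46 through -0.56 to 1.82 in CSP and from 3.03 through 4.08 to 4.12 in CMP. No values overlapped, and the level was 16.8-fold lower in CSP (-4.07 ± 0.88 SE, adjusted p = 0.00884). Il36a, a cytokine of the same family made by epithelia, was 2.83-fold lower (-1.50 ± 0.39 SE, adjusted p = 0.0164). It was well above background on only 2 of 6 CSP arrays, so this fold is not exact.

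Of 5 inflammasome genes, 3 were higher and 1 was lower in CSP. The protease Casp1, which matures Il1b and Il18, ran from -0.76 to 0.81 in CSP and from -2.99 to -2.26 in CMP, a 5.94-fold difference (2.57 ± 0.49 SE, adjusted p = 0.00795). Casp4, which senses bacterial lipopolysaccharide inside the cell, was 23.8-fold higher (4.58 ± 0.88 SE, adjusted p = 0.00795), and Gsdmd, which forms the membrane pore they open, 4.68-fold higher. Pycard, the adaptor that joins sensors to Casp1, was 4.62-fold lower (-2.21 ± 0.54 SE, adjusted p = 0.0121). Casp1 and its substrate Il1b thus differed in opposite directions, and the sensor Nlrp3 differed by -0.10, without passing.

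Of 19 signalling genes, 3 were higher in CSP and 0 lower, a share near the 14.9% of all genes called. Irak3, an inhibitor of the kinases downstream of the receptor, was 6.37-fold higher (2.67 ± 0.58 SE, adjusted p = 0.009), and Peli2, a ubiquitin ligase of the pathway, 2.54-fold higher (adjusted p = 0.016). The adaptor Myd88 ran from 0.93 to 1.45 in CSP and from -0.13 to 0.49 in CMP, a 1.97-fold difference (adjusted p = 0.0195).

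Of 20 tested genes known to be induced by interleukin 1, 10 were higher in CSP and 1 was lower, although Il1a and Il1b were lower there. The matrix protease Mmp3 ran from 5.06 through 6.12 to 7.35 in CSP and from 0.17 to 0.97 in CMP, a 40.7-fold difference (5.35 ± 1.15 SE, adjusted p = 0.00884). Il6, a cytokine of the acute phase, ran from 7.31 to 8.24 in CSP and from 3.66 to 3.83 in CMP. Mmp9 was 16.8-fold and Tnfaip6 16.4-fold higher; Csf2, a growth factor of myeloid cells, was 7.85-fold lower (-2.97 ± 0.86 SE, adjusted p = 0.0261). Many of these genes are also induced by other signals and expressed by fibroblasts and endothelial cells, whose markers were higher in CSP as well. Their part in the result was not tested.

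After surgery 0 of 53 pathway genes passed between TSP and TMP with all arrays (limma; 20 unadjusted). Without TSP 1 and TSP 2, 15 were higher and 5 lower in TSP, with a median of 0.28, where 14.7% of all genes were called (7.67% higher and 7.01% lower). Mmp3 was 67.6-fold, Il6 13.4-fold, Casp4 13.5-fold and Irak3 5.89-fold higher, and Il18r1 was 17.8-fold lower (-4.15 ± 0.55 SE, adjusted p = 6.43e-05). Mmp3 was 0.38 on TSP 1 and 0.82 on TSP 2, and 5.99 to 6.90 on the other TSP arrays. Between TSP and CSP, and between TMP and CMP, 0 of 53 passed (8 and 1 unadjusted, and 0 and 1 without TSP 1 and TSP 2).

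Il1b and Il1rn are made largely by myeloid cells and, in the case of Il1rn and Il1a, also by epithelia, so markers of these cells were read beside them. Of 13 macrophage and pan-leukocyte markers, 3 were lower in CSP than in CMP (Ctss 12.9-fold, Lyz2 2.54-fold and Cd68 2.28-fold) and 1 was higher (Cd14, 4.07-fold). Ptprc, which marks all leukocytes, differed by -0.59 ± 0.38 SE (adjusted p = 0.333) and was above background on 1 of 6 CSP and 3 of 3 CMP arrays. The mean of the 13 log2 ratios ranged from -3.70 to -2.95 in CSP, from -2.64 to -2.33 in CMP, from -3.94 to -2.07 in TSP (-2.62 on TSP 1 and -2.07 on TSP 2) and from -2.53 to -1.80 in TMP. CSP and CMP did not overlap in it, and none of the 13 markers was below background on all arrays.

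The epithelial mean ranged from -1.48 to 2.74 in CSP and from 3.89 to 4.37 in CMP, and 2 of 5 squamous and basal markers were lower in CSP. Beside Il33, Il1rl1 and Il1r2, the endothelial mean ranged from 0.86 to 2.53 in CSP and from -2.05 to -1.46 in CMP, and the fibroblast mean from -1.41 to 1.13 and from -3.99 to -3.40. Il1rl1 is also a marker of mast cells, and 0 of 6 mast cell markers passed (means from -0.93 to -0.07 in CSP and from -1.05 to -0.81 in CMP). No marker passed among 4 neutrophil, 4 T cell and 3 B cell genes. The part of cell composition in the members' differences was not tested.

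Genes with patterns most like a member were ranked by the root mean square difference of their centred log2 ratios over the 18 arrays. The chemokine genes Ccl3 (0.31) and Ccl4 (0.32) were closest to Il1b. Ccl3 ran from -1.16 through -1.03 to -0.46 in CSP, was between 1.98 and 2.65 in CMP, and was 1.16 on TSP 1 and 1.93 on TSP 2, and was thus high on the same arrays as Il1b. Closest to Il33 were Adcy7 (0.34) and Loxl1 (0.36), closest to Il1r2 was Crispld1 (0.25), and closest to Il1rl1 was Agpat5 (0.37). For Il1rn no gene was closer than 0.61 (Hmgcll1), and for Il1a none closer than 0.54. These are descriptions over arrays that share 1 reference.

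Neighbouring genes, chosen after their values were seen, did not always share a direction. In the receptor cluster of chromosome 1, in RefSeq order, Il1r2 differed between CSP and CMP by 2.20, Il1r1 by 0.80, Il1rl2 by 0.04, Il1rl1 by 2.02 and Il18r1 by -4.07. Il1rl1 and Il18r1, next to each other, thus differed in opposite directions. On chromosome 2, Il1a (-2.33) and Il1b (-3.04) were both lower, and Il1f10, next to Il1rn (-3.54), differed by 0.27 (adjusted p = 0.497).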

How the data were processed

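Gene expression was measured on 18 Agilent arrays with 2 colours. The deposited scanner files hold, per the file headers, raw and background intensity of each channel; Feature Extraction was version 9.5.1.1 per the file headers and 8.5.1.1 per the submitters' processing notes. The value table holds log2 ratios by the authors, whose centring and normalization are not given in the sources used here; column medians were 0.127 to 0.302 and 8 of 18 columns best matched the scanner file of another sample, so this table served as an alternative only.

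Intensities were corrected with normexp (offset 50) in limma 3.58.1 (R 4.3.3) and then normalized within each array by loess, where control spots had weight 0. Spots with an outlier mark were left out and spots of a probe averaged. A gene name took the value of its brightest probe, of the probes whose Cy5 signal was clear of background on 3 or more arrays. A model of 4 group means gave all contrasts, tested with limma and Benjamini-Hochberg adjustment over 20455 genes; a second fit used every probe. The arrays' number limits the precision. Scripts were tested on simulated data. Alternatives covered background correction, normalization, the filter, the choice of probe, slide and replicate number as blocks, single slides, and leaving out arrays.

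The members, lists and named genes (per role, up to the 3 largest changes past the threshold in each direction) were chosen with earlier results of these data known. Il6 and Nlrp3 between CSP and CMP, and array neighbours, were named after their values were seen. Names follow the array, updated through RefSeq accessions (22951 probes matched). Same-numbered CMP and TMP arrays correlated in their deviations from the group means (r = 0.666, 0.742 and 0.808). They also shared a slide, so pair and slide cannot be told apart. Same-numbered CSP and TSP arrays correlated at r from -0.0523 to 0.463. For numbers 3, 4 and 5 (0.328, 0.219 and 0.463) this exceeded the value with any other-numbered TSP array. For numbers 1, 2 and 6 it did not. Whether CSP and TSP numbers mark pairs is therefore not known, and the main fit used no pairs.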

Additional observations from a re-analysis of the deposited data

Results flagged for a closer look

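Of 28 groups of 6 arrays, those of each measured probe in CSP and in TSP, 4 held an array far from the rest of its group; chance gives about 1 in 20. Il1a probe 2 was 1.35 on CSP 3, against -0.28 on the next highest CSP array. Il1a probe 1 was -1.25 on CSP 2, against 0.02 on the next lowest, and -0.84 on TSP 1, against -0.21 on the next lowest TSP array. Il1r2 probe 1 was 1.59 on CSP 3, against 0.95 on the next highest. CSP 3 thus stood high for Il1a and for Il1r2, genes that differed in opposite directions between the control populations. Il1a probe 1 was above background on only 1 CSP and 0 TSP arrays, so both of its low values lie in a range where the array gives a bound.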

How the results depend on the processing

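Between CSP and CMP, 5 members and 20 pathway genes were called. Scaling between arrays left 3 and 5, where 601 of 20455 genes were called. The authors' values left 3 members (Il1a had no usable value there), with 2654 of 18093 genes called. The filter at 9 arrays left 2 members (it removed Il1a, Il1b and Il1r2), with 3013 of 16970 genes called. Leaving out 1 replicate gave 3 to 6 members, 11 to 23 pathway genes and 572 to 3350 genes in all, lowest without CMP 2. Between TSP and TMP, 0 members and 0 pathway genes became 1 and 5 with slide as a block, with 224 of 20455 genes called. Without TSP 1 and TSP 2 they became 6 and 20 (3003 of 20455 genes), and with both changes 5 and 24 (3213 of 20455). Leaving out 1 replicate gave 0 to 3 members, 0 to 10 pathway genes and 0 to 613 genes in all. The member and pathway counts were highest without TSP 1 or TSP 2. Between TSP and CSP, 0 and 0 became 2 and 3 with slide as a block and 7 and 34 within slide 1, where 898 of 20455 and 8320 of 20454 genes were called. The cause of these shifts was not tested.

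With the replicate number as a block over all groups, 5 members and 19 pathway genes were called between CSP and CMP, and the call on Il33 was lost, with 2002 genes in all against 3039. With the number as a block within the main population, 0 members and 0 pathway genes were called between TMP and CMP, and 6 genes in all. Over all genes, the CSP and CMP count was 5758 with slide as a block, 601 after scaling and 572 without CMP 2. The share of calls higher in CSP was 51.2%, but 32.5% with median centring and 44.9% with processed signals. No member called between CSP and CMP with all arrays changed sign under any alternative run; between TSP and CSP, Il1a (1.65), Il1b (2.16) and Il33 (-3.46) were called within slide 1 and had the opposite sign within slide 3 (-0.87, -0.37 and 1.54). Probes below background on a whole group gave bounds only.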
